A study of Rattus norvegicus with 31 samples.

Results

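The Slc25 family comprises carrier proteins, most of which move metabolites across the inner mitochondrial membrane. Its transcripts were followed here in rat gastrocnemius, a mixed and mostly fast calf muscle. The members were every gene whose symbol in the deposited normalised table was Slc25a followed by a number, without Slc25a1 and Slc25a20, which gave 31 of the 11289 genes listed. Of these, 29 had enough counts to be tested, among 10082 tested genes in all, and Slc25a13 and Slc25a2 did not. The muscle came from 31 female Sprague Dawley rats fed chow 5001 and aged 7 months. The 4 groups were: Ucp1 knockout rats kept at 4 °C for 14 days (n = 8), Ucp1 knockout rats kept at room temperature (RT) over the same period (n = 7), control rats at 4 °C (n = 8) and control rats at RT (n = 8). Each animal gave 1 library. Ucp1 lets brown fat mitochondria turn fuel into heat, and the comparisons address how muscle responds to cold with and without that route. Ucp1 itself was not analysed here, so the genotype of every library rests on its label. The labels do not say how the knockout allele was made or whether the animals came from 1 litter.

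Carriers of this family share a fold of repeated helix pairs. Most exchange 1 solute for another, or carry a solute together with a proton, across a membrane that is otherwise closed to charged metabolites. In muscle the most used is the exchange of ADP for ATP, which is coupled to phosphate uptake and feeds ATP synthase. Other members pass malate, aspartate and oxoglutarate, solutes of the malate-aspartate shuttle, which brings reducing equivalents into the matrix. Still others take in iron, glutathione, S-adenosylmethionine or coenzyme A.

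The libraries held 6.56 to 11.9 M counts. The muscle markers Acta1, the skeletal actin, and Ckm, the muscle creatine kinase, lay at 20681 to 51818 and at 7803 to 23761 CPM (counts scaled to library size, with TMM factors) over the 31 libraries. The first 2 principal components of log2 levels held 35.3% and 14.1% of the variance. On the first component 7 libraries had the lowest scores (knockout animals 25 and 28 in the cold, knockout animals 9 and 12 at RT, control animals 17 and 23 in the cold and control animal 1 at RT). Control animals 1 and 2 at RT stood apart on the second component, with 0.630 and 0.313 CPM of the adipocyte hormone Adipoq. In the fit over all genes, cold changed 139 genes in knockout muscle and 86 in control muscle at an adjusted p under 0.05. In bulk muscle, fewer cells of a type and less RNA per cell cannot be told apart.

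Transcripts of the family were dominated by a single carrier. Slc25a4, the adenine nucleotide translocator of heart and muscle, averaged 19874 CPM and held 94.4% of the summed CPM of the family, with 91.5% to 95.4% in single libraries. Slc25a3, the phosphate carrier, followed at 674 CPM, then Slc25a46 at 118 CPM, Slc25a11 at 72.5 CPM and Slc25a39 at 50.5 CPM. Slc25a11 and Slc25a39 were among 11 members that averaged 10 to 100 CPM, 15 averaged 1 to 10 CPM, and Slc25a13 and Slc25a2 averaged under 1 CPM. These levels come from a 3′ tag kit (QuantSeq), so they do not scale with transcript length but do depend on how well each 3′ end was annotated, and ranks between carriers are approximate for that reason. Slc25a4, Slc25a3, Slc25a46 and Slc25a11 held ranks 1 to 4 by median in each of the 4 groups.

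**Figure D1:**
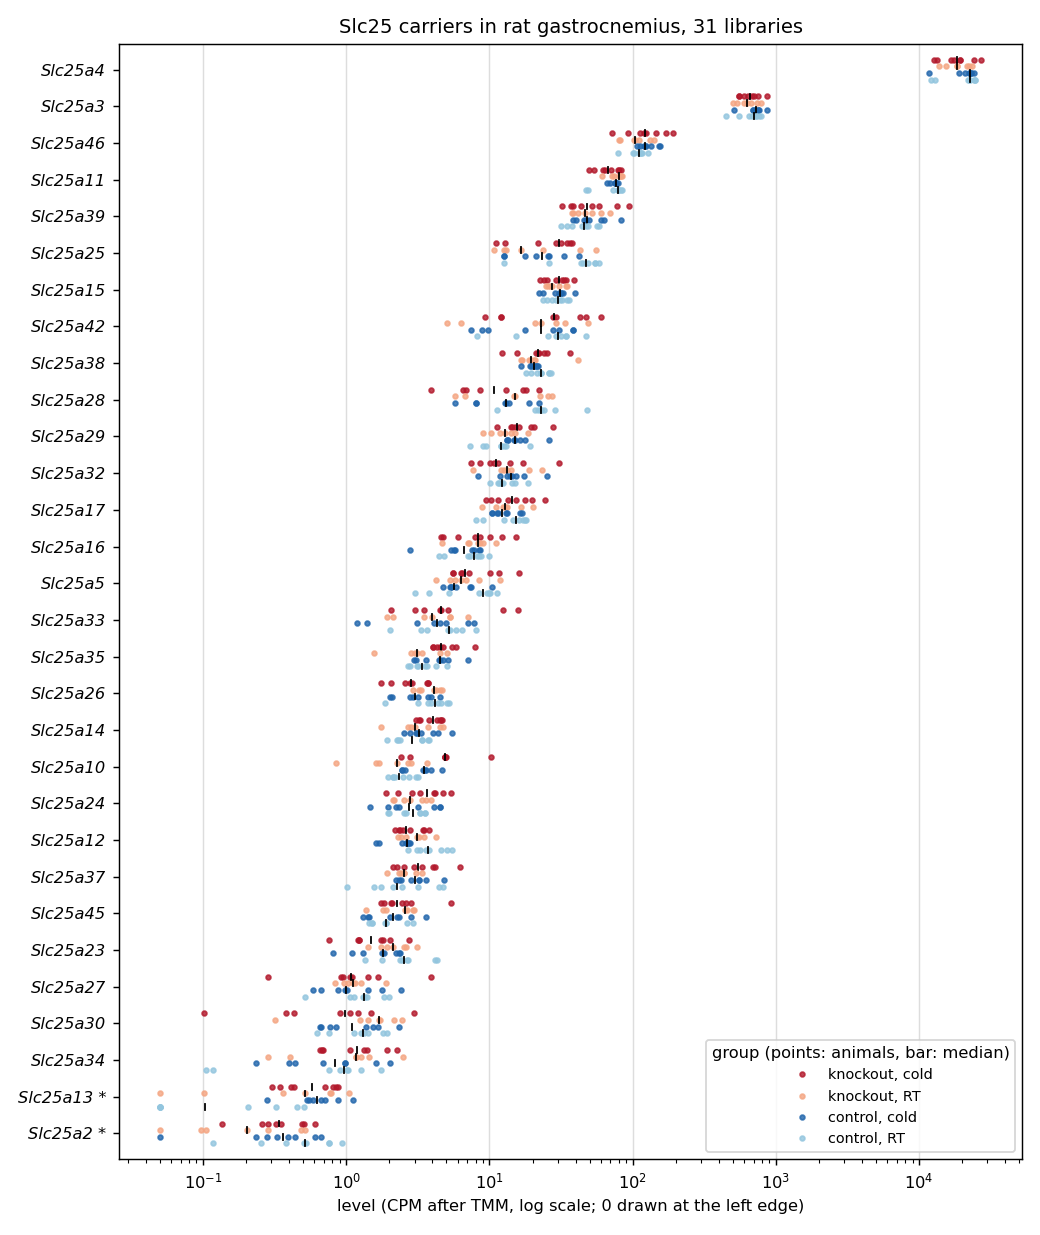
Level of 30 Slc25 members in CPM after TMM scaling (log axis), with 1 point per animal and a bar at each group's median; the 2 carriers marked with an asterisk were not tested. Slc25a4 lies above 10000 CPM in every library, and the 4 groups of every carrier drawn overlap.

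The family's share of all counts had medians of 2.10% in knockout rats in the cold, 1.93% in knockout rats at RT, 2.31% in control rats in the cold and 2.38% in control rats at RT. The spread between animals differed widely between carriers. The coefficient of variation, pooled within groups, was 15.1% for Slc25a11, 15.9% for Slc25a3 and 22.6% for Slc25a4. It reached 62.2% for Slc25a33, 59.6% for Slc25a34 and 57.2% for Slc25a42. Slc25a34 had a median of only 9 counts per library, whereas Slc25a42 had 236, so low counts did not accompany every wide spread. In the 7 libraries lowest on the first component Slc25a42 lay at 5.09 to 15.3 CPM, and in the others at 8.25 to 59.7 CPM. The part of that component in its spread was not tested.

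RefSeq promoter windows of assembly GRCr8, from 250 bases before to 50 bases after each gene's start, were at hand for 25 of the 31 members; Slc25a26, Slc25a30, Slc25a32, Slc25a37 and Slc25a46 were among those without an entry. Those of the 2 carriers that passed a test, and of the most abundant one, are shown 5′ to 3′ on the gene's own strand, with letters of a motif match in capitals. They lie at chr10:106264146-106264445 on the plus strand for Slc25a10, chr3:76599487-76599786 on the minus strand for Slc25a12 and chr16:52805271-52805570 on the plus strand for Slc25a4.
Slc25a10: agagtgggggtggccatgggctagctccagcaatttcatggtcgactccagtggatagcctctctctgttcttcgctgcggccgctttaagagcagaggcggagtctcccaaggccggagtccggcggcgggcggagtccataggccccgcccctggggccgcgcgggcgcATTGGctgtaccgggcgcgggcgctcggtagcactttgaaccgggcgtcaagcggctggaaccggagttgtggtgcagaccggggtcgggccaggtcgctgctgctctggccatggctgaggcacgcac
Slc25a12: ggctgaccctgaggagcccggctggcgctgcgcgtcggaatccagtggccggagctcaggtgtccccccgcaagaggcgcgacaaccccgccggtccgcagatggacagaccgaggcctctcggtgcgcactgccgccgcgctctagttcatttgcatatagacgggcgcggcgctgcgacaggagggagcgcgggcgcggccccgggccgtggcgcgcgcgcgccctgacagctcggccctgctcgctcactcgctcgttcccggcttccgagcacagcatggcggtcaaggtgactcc
Slc25a4: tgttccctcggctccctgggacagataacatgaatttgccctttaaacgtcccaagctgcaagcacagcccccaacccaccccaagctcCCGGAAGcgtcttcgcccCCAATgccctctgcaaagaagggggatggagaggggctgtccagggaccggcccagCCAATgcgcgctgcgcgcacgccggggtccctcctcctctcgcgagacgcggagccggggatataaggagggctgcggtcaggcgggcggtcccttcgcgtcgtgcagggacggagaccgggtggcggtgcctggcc

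The motifs, each searched on both strands, were the estrogen-related receptor element TCAAGGTCA, the NRF1 palindrome, the ETS core CCGGAAG, the E-box CACGTG and the CCAAT box CCAAT. Slc25a10 held a reverse-strand CCAAT box at -79 from its start. Slc25a4 held an ETS core at -161 and CCAAT boxes at -143 and -87, and none of the 5 motifs lay in the window of Slc25a12. A CCAAT box lay in 16 of the 25 member promoters (64%) and in 37.5% of all 33469 promoters of the table. The ETS core lay in 5 member promoters (20%), those of Slc25a3, Slc25a4, Slc25a14, Slc25a17 and Slc25a38, against 8.75% of all promoters. An E-box lay in those of Slc25a2 and Slc25a33 (8%, against 6.42% of all), and the estrogen-related receptor element and the NRF1 palindrome were in 0 member promoters, against 0.433% and 4.25% of all. The promoters of the table were not limited to genes measured in this muscle, so the sets are unlike and the shares are no test of the members. These matches describe letters in a window and were not compared with expression.

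In the fit to all 31 libraries, 1 carrier passed as higher in the cold in knockout muscle and another as lower in control muscle. Both calls were lost when only the groups compared were fitted, and a difference between genotypes was not shown for either carrier. In knockout rats, cold against RT, 1 of the 29 tested members passed, against 1.38% of all 10082 genes tested; it was Slc25a10, which was higher. In control rats 1 of 29 passed as well, against 0.853% of all genes, and it was Slc25a12, which was lower. At an unadjusted p under 0.05 the members numbered 2 in knockout rats (14.3% of all genes) and 6 in control rats (14.2% of all genes). The members' median log2 fold change was 0.13 in knockout rats, against 0.02 over all genes, with 21 members higher and 8 lower. In control rats it was 0.01, against -0.03 over all genes, with 16 higher and 13 lower. Neither split of directions was set beside that of all genes. The 95% interval of the change stayed within 1 log2 unit either way for 21 of 29 carriers in knockout rats and for 22 of 29 in control rats, and within 0.5 for 7 and 4 carriers. The cold and RT animals of a genotype lay wholly apart for 0 members, against 0.357% and 0.188% of all genes that lay apart higher and lower in knockout rats, and 0.327% and 0.109% in control rats.

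Averaged over both genotypes, cold passed for 1 of 29 members, again Slc25a10, against 5.65% of all genes tested. A further 5 members had the next smallest p-values in this average, where 8 members and 19.5% of all genes had an unadjusted p under 0.05. Slc25a12 (-0.40 ± 0.13, adjusted p = 0.0550), Slc25a28 (-0.73 ± 0.25, adjusted p = 0.0768) and Slc25a23 (-0.56 ± 0.19, adjusted p = 0.0707) had log2 fold changes below 0. Slc25a35 (0.46 ± 0.15, adjusted p = 0.0578) and Slc25a29 (0.42 ± 0.14, adjusted p = 0.0632) had log2 fold changes above 0. Under DESeq2 these 5 passed together with Slc25a10, which makes 6 members. The share of all genes that passed there is not given, so the 6 members are no result about the family. A fit that took scores on component 1 as a covariate, chosen after the data were seen, passed those 6 and Slc25a26. More of all genes passed under that covariate as well.

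**Figure D2:**
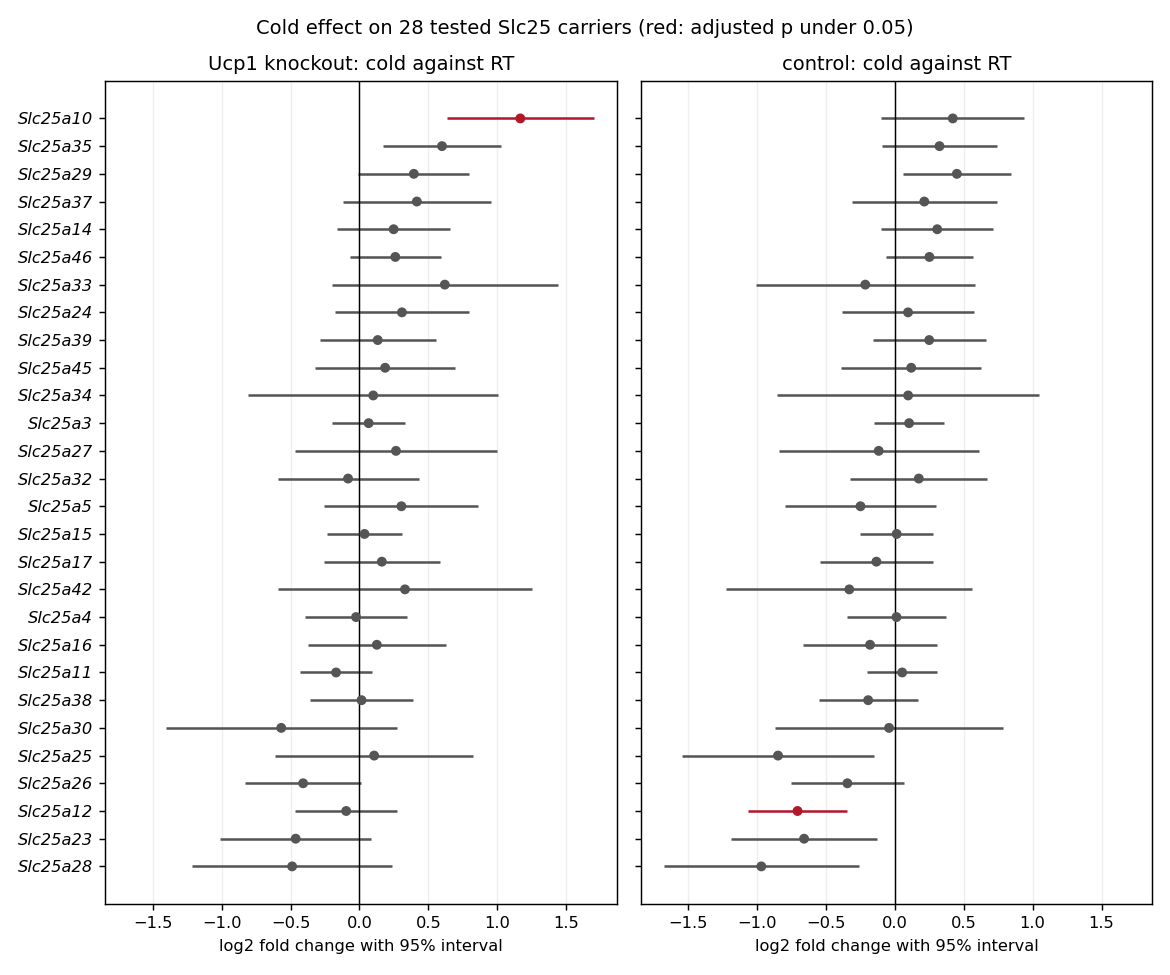
Log2 fold change of cold against RT with its 95% interval for 28 of the 29 tested carriers, in Ucp1 knockout rats (left) and control rats (right), ordered by the mean of both. Slc25a10 at 1.17 in knockout rats and Slc25a12 at -0.71 in control rats are the points in red, with an adjusted p under 0.05.

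Among the carriers of dicarboxylates and oxoacids, 1 of 4 tested members rose in knockout rats and 0 of 4 passed in control rats. Over all genes tested, 1.38% passed in knockout rats and 0.853% in control rats, and 1 call is no result about the role. Slc25a10 (GRCr8 chr10:106264396-106271895), the dicarboxylate carrier that exchanges malate or succinate for phosphate and is known from liver, kidney and white fat, was a low transcript in this muscle. In knockout rats its lowest, median and highest levels were 2.41, 4.92 and 10.3 CPM in the cold and 0.847, 2.25 and 3.69 CPM at RT. In control rats they were 2.44, 3.48 and 4.64 CPM in the cold and 1.95, 2.33 and 3.15 CPM at RT. Of the 8 knockout rats in the cold, 6 lay above every knockout rat at RT, and the other 2, animals 24 and 31, lay within the RT range. Knockout animal 28 in the cold was the highest of all libraries, and the next highest in its group had 4.99 CPM. The values rest on 24 to 101 counts per library in knockout rats in the cold, 9 to 35 in knockout rats at RT, 22 to 36 in control rats in the cold and 14 to 27 in control rats at RT.

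The change of Slc25a10 with cold in knockout rats was 1.17 ± 0.26 on the log2 scale (SE), a 2.25-fold increase with an edgeR adjusted p of 0.0160. In control rats it was 0.42 ± 0.25 (adjusted p = 0.444), and averaged over genotypes 0.79 ± 0.18 (adjusted p = 0.00669). The difference between the cold effects was 0.75 ± 0.36 and did not pass (adjusted p = 0.673), so the response is not shown to differ between genotypes. Without animal 28 the change in knockout rats was 0.94, and leaving out each of the 31 libraries in turn gave adjusted p-values of 0.00574 to 0.0453. When the model was fitted to the knockout libraries alone the change was 1.17 and its adjusted p 0.113, so the call was lost there.

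White adipocytes are a known site of Slc25a10 expression, and their markers were examined beside it. The 9 measured markers summed to 1162 to 2195 CPM in knockout rats in the cold, 924 to 1207 CPM in knockout rats at RT, 1012 to 1343 CPM in control rats in the cold and 463 to 1162 CPM in control rats at RT. Of the 8 that were tested, 1 passed in knockout rats, Retn, an adipocyte hormone in rodents (2.41 ± 0.54, adjusted p = 0.0169), and 0 passed in control rats. Of all genes tested, 1.38% and 0.853% passed in these comparisons. Adipoq stood at 1.47 ± 0.48 (adjusted p = 0.109) in knockout rats. Averaged over genotypes, where 5.65% of all genes passed, Retn (1.95 ± 0.37, edgeR adjusted p = 0.00117) and Lpl (0.48 ± 0.12, adjusted p = 0.0137) passed. Adipoq stood there at 1.01 ± 0.33 (adjusted p = 0.0641) and Fabp4 at -0.12 ± 0.16 (adjusted p = 0.747), the only tested marker below 0. Knockout animal 24 had both the lowest Adipoq, 17.7 CPM, and the lowest Slc25a10, 2.41 CPM, of the knockout rats in the cold. Knockout animal 30 in the cold had 94.2 CPM of Adipoq and 4.94 CPM of Slc25a10, knockout animal 28 had 34.9 CPM and 10.3 CPM, and control animals 1 and 2 at RT, with Adipoq of 0.630 and 0.313 CPM, had 3.15 and 2.19 CPM of Slc25a10. The part of fat cells in the change of Slc25a10 was not tested.

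**Figure D3:**
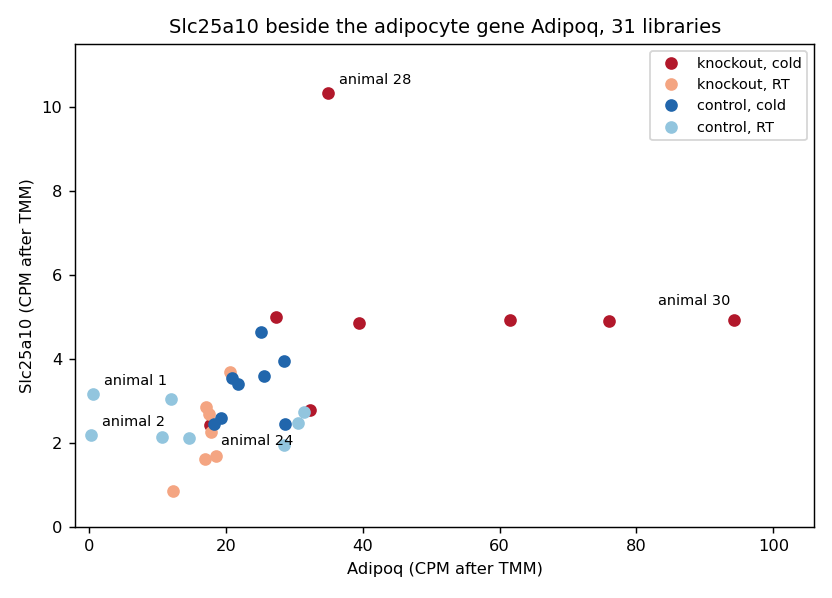
Slc25a10 (vertical) against the adipocyte hormone Adipoq (horizontal), both in CPM after TMM, 1 point per library and coloured by group. Of the knockout animals in the cold, 5 hold 4.86 to 4.99 CPM of Slc25a10 while their Adipoq spans 27.4 to 94.2 CPM, animal 24 is lowest of that group in both, at 2.41 and 17.7 CPM, and control animals 1 and 2 at RT hold 3.15 and 2.19 CPM with the lowest Adipoq.

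Slc25a35, a relative whose substrates are less settled, had lowest, median and highest levels of 4.02, 4.62 and 7.97 CPM in knockout rats in the cold and of 1.56, 3.10 and 5.09 CPM in knockout rats at RT. In control rats the levels were 2.97, 4.48 and 7.04 CPM in the cold and 2.71, 3.36 and 5.04 CPM at RT. The groups overlapped in both genotypes, although 5 of 7 knockout rats at RT lay below every knockout rat in the cold. Its log2 change with cold was 0.60 ± 0.21 in knockout rats (adjusted p = 0.148) and 0.32 ± 0.20 in control rats (adjusted p = 0.465), and neither passed.

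Slc25a11, which exchanges oxoglutarate for malate in the malate-aspartate shuttle, was among the steadiest carriers. Its median was 67.6 CPM in knockout rats in the cold, 80.8 CPM in knockout rats at RT, 76.0 CPM in control rats in the cold and 78.9 CPM in control rats at RT. The lowest and highest values over those groups were 46.9 CPM, in control animal 2 at RT, and 84.4 CPM, in control animal 4 at RT. Its change with cold was -0.17 ± 0.13 in knockout rats and 0.05 ± 0.12 in control rats, with 95% intervals of -0.43 to 0.09 and -0.20 to 0.31. Slc25a34 had group medians of 0.834 to 1.20 CPM, and its groups overlapped throughout; its changes were 0.10 ± 0.44 and 0.10 ± 0.46 in knockout and control rats.

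Among the amino acid carriers, 0 of 5 tested members passed in knockout rats and 1 of 5 fell in control rats. The shares of all genes tested that passed were 1.38% and 0.853% in those comparisons, and 1 call is no result about the role. Slc25a12 (GRCr8 chr3:76504868-76599536), the aspartate-glutamate carrier of muscle and brain known as aralar, sends aspartate out of the matrix in the malate-aspartate shuttle. In knockout rats its lowest, median and highest levels were 2.18, 2.64 and 3.78 CPM in the cold and 2.32, 3.11 and 4.21 CPM at RT. Control rats had 1.62, 2.64 and 2.79 CPM in the cold and 2.71, 3.70 and 5.45 CPM at RT. All but 1 of the 8 control rats at RT lay above every control rat in the cold, the exception being animal 2, whereas the knockout groups overlapped broadly. The values rest on 12 to 27 counts per library in control rats in the cold and 26 to 43 at RT.

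In knockout rats the log2 change of Slc25a12 with cold was -0.10 ± 0.18 (adjusted p = 0.890). In control rats Slc25a12 fell by 0.71 on the log2 scale (SE 0.18; edgeR adjusted p = 0.0466), to 0.613 of the RT level. The cold effects differed by 0.61 ± 0.25 (adjusted p = 0.608), which did not pass, so a difference between genotypes is not shown. The call in control rats lies close to the threshold: it was lost in 18 of the 31 fits that left out 1 library, with adjusted p-values of 0.0351 to 0.110 and changes of -0.77 to -0.63. It was also lost with the low-count filter removed (adjusted p = 0.0503) and in a fit to the control libraries alone (adjusted p = 0.0670).

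**Figure D4:**
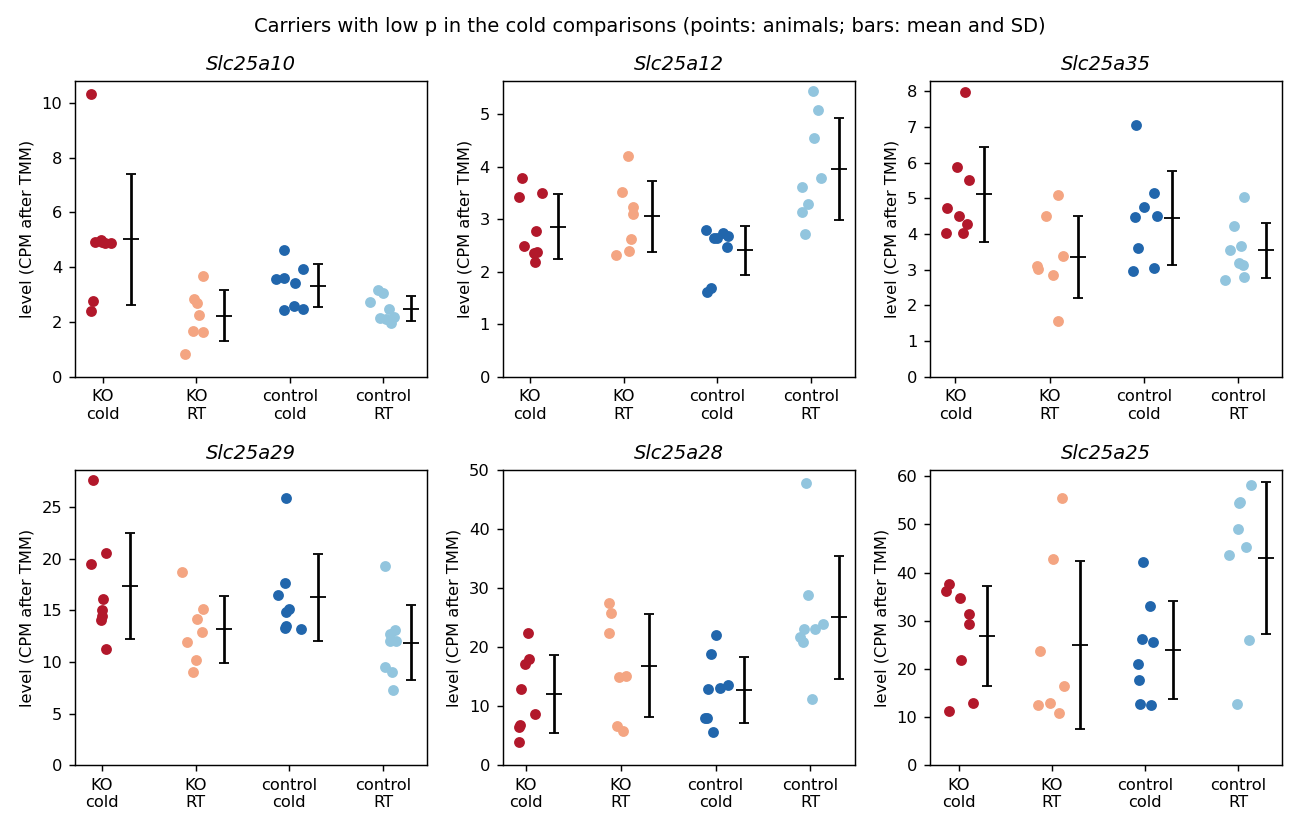
Levels in CPM after TMM of 6 carriers with a low p in a cold comparison, 1 point per animal, with the mean and SD of each group beside the points and each vertical axis starting at 0. Slc25a10 averages 5.02 ± 2.39 CPM in knockout rats in the cold and 2.23 ± 0.94 CPM in knockout rats at RT, and Slc25a12 averages 2.41 ± 0.47 CPM in control rats in the cold and 3.96 ± 0.98 CPM in control rats at RT.

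Slc25a13, the aspartate-glutamate carrier of liver known as citrin, was close to absent, with 0 to 11 counts per library and a median of 4. Slc25a2, an ornithine carrier, had 0 to 9 counts with a median of 3. Both fell under the filter on low counts. Slc25a13 had 3 to 10 counts in knockout rats in the cold and 0 to 10 in knockout rats at RT, 2 to 11 in control rats in the cold and 0 to 4 in control rats at RT. Of the 8 control rats in the cold, 7 lay above every control rat at RT, with medians of 0.628 CPM in the cold and 0.103 CPM at RT, whereas the knockout groups overlapped, with medians of 0.575 and 0.517 CPM. In the edgeR fit with no filter the log2 change of Slc25a13 with cold was 0.20 ± 0.50 in knockout rats (adjusted p = 0.920) and 1.85 ± 0.57 in control rats (adjusted p = 0.117), and neither passed. That of Slc25a2 was 0.62 ± 0.48 in knockout rats (adjusted p = 0.628) and -0.48 ± 0.43 in control rats (adjusted p = 0.633). Slc25a12, at a mean of 3.07 CPM, was the higher of the pair of aspartate-glutamate carriers.

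Slc25a29, a carrier of basic amino acids such as arginine and lysine, had lowest, median and highest levels of 11.3, 15.6 and 27.6 CPM in knockout rats in the cold and 9.02, 12.9 and 18.7 CPM in knockout rats at RT. The control rats had 13.2, 14.98 and 25.9 CPM in the cold and 7.31, 12.1 and 19.3 CPM at RT. In control rats 7 of 8 RT animals lay below every animal in the cold, and animal 1 at RT was the exception. The log2 change was 0.39 ± 0.20 in knockout rats (adjusted p = 0.356) and 0.45 ± 0.19 in control rats (adjusted p = 0.2697), neither of which passed. Slc25a15, the ornithine carrier of the urea cycle, and Slc25a38, a glycine carrier needed for haem synthesis, had group medians of 27.4 to 31.01 CPM and 19.4 to 22.9 CPM. Slc25a45 had group medians of 1.88 to 2.58 CPM, and its highest value was 5.42 CPM in knockout animal 28 in the cold.

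Of the 8 tested carriers of adenine nucleotides or coenzyme A, 0 passed in either genotype, nor did the phosphate carrier Slc25a3. Slc25a4 had lowest, median and highest levels of 12615, 18421 and 27207 CPM in knockout rats in the cold and 13835, 18502 and 23502 CPM in knockout rats at RT. In control rats they were 11812, 22483 and 24098 CPM in the cold and 12167, 22538 and 24541 CPM at RT. The following 3 libraries of control rats lay far below the rest of their groups: animal 17 in the cold at 11812 CPM and animals 1 and 2 at RT at 12167 and 12885 CPM. The log2 change of Slc25a4 with cold was -0.02 ± 0.18 in knockout rats (95% interval -0.39 to 0.35) and 0.01 ± 0.17 in control rats (95% interval -0.35 to 0.37). Without control animals 1 and 2 at RT the value in control rats was -0.16, and in 7 of the 31 fits that left out 1 library it was also below 0, so its sign is not settled.

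Slc25a5, the translocator form of proliferating cells, averaged 7.44 CPM, and Slc25a4 exceeded it 834-fold to 4920-fold in single libraries, with a median of 2781-fold. How reads shared between near-identical copies were counted is not given in the sources used here, so the low level of Slc25a5 is uncertain to that extent. Its group medians were 6.78 CPM in knockout rats in the cold, 6.34 CPM in knockout rats at RT, 5.64 CPM in control rats in the cold and 9.03 CPM in control rats at RT, and the groups overlapped. Slc25a3 had medians of 660, 631, 728 and 701 CPM in the same 4 groups, and its changes with cold were 0.07 ± 0.13 in knockout rats and 0.10 ± 0.12 in control rats.

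The ATP-Mg/phosphate carriers adjust the adenine nucleotide pool of the matrix and respond to cytosolic calcium. Slc25a25, the most abundant of them here, had lowest, median and highest levels of 11.2, 30.4 and 37.7 CPM in knockout rats in the cold and 10.9, 16.6 and 55.4 CPM in knockout rats at RT. Among control rats the values were 12.6, 23.4 and 42.1 CPM in the cold and 12.7, 47.2 and 58.1 CPM at RT. In control rats 6 of 8 RT animals lay above every animal in the cold, and animals 5 and 6 did not. The log2 change with cold was 0.11 ± 0.35 in knockout rats (adjusted p = 0.950) and -0.85 ± 0.34 in control rats (adjusted p = 0.246), and the difference between these effects, 0.96 ± 0.49, did not pass (edgeR adjusted p = 0.699). At RT the knockout rats stood at -0.78 ± 0.35 against control rats (adjusted p = 0.698).

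Slc25a23, its lower paralogue, had medians of 1.495 CPM in knockout rats in the cold, 2.11 CPM in knockout rats at RT, 1.81 CPM in control rats in the cold and 2.54 CPM in control rats at RT. Its values ran from 0.760 to 4.32 CPM and the groups overlapped; the log2 changes with cold were -0.46 ± 0.27 and -0.66 ± 0.26 in knockout and control rats (adjusted p = 0.453 and 0.236). Slc25a24, the third of these carriers, had group medians of 2.76 to 3.69 CPM. Slc25a16 and Slc25a42, both linked to coenzyme A, had medians of 6.65 to 8.31 CPM and 22.8 to 30.2 CPM, and Slc25a17, the peroxisomal carrier of coenzyme A and related cofactors, 12.2 to 15.3 CPM. Slc25a42 ranged between 5.09 CPM in knockout animal 12 at RT and 59.7 CPM in knockout animal 31 in the cold.

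Of the 7 carriers of iron, cofactors, nucleotides and glutathione, 0 passed in either genotype. Slc25a28, mitoferrin 2, imports iron for haem and iron-sulphur clusters outside the red cell lineage. Its lowest, median and highest levels were 3.89, 10.8 and 22.4 CPM in knockout rats in the cold and 5.79, 15.1 and 27.5 CPM in knockout rats at RT. In control rats they were 5.72, 12.99 and 22.1 CPM in the cold and 11.3, 23.1 and 47.9 CPM at RT. The highest value, in control animal 2 at RT, belonged to one of 5 RT controls above every control rat in the cold. The log2 change was -0.49 ± 0.35 in knockout rats (adjusted p = 0.587) and -0.97 ± 0.34 in control rats (adjusted p = 0.182); without control animals 1 and 2 at RT it was -0.75 in control rats.

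Slc25a37, mitoferrin 1, the form of developing red cells, had medians of 3.19, 2.53, 3.04 and 2.28 CPM in knockout rats in the cold, knockout rats at RT, control rats in the cold and control rats at RT. The 6 measured erythroid transcripts summed to medians of 983, 554.9, 753 and 476 CPM in the same groups, and their part in the level of Slc25a37 was not tested. Slc25a39, which brings glutathione into the matrix, had medians of 47.8, 46.1, 48.2 and 46.1 CPM, and its changes with cold were 0.13 ± 0.21 in knockout rats and 0.25 ± 0.20 in control rats. Its highest value, 94.5 CPM, was again in knockout animal 28 in the cold. Slc25a26, the importer of S-adenosylmethionine, had a log2 change of -0.41 ± 0.21 in knockout rats and -0.34 ± 0.20 in control rats, with medians of 2.83 CPM in knockout rats in the cold, 4.09 CPM in knockout rats at RT, 3.04 CPM in control rats in the cold and 4.15 CPM in control rats at RT. Slc25a32, a carrier linked to folate and flavin, had medians of 11.1 to 14.1 CPM, and Slc25a33, a pyrimidine nucleotide carrier, 4.00 to 5.20 CPM.

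The 3 relatives of the uncoupling proteins were low and 0 passed. Slc25a14 had group medians of 2.89 to 4.05 CPM, Slc25a30 of 0.987 to 1.68 CPM and Slc25a27 of 0.999 to 1.33 CPM. Slc25a46, which sits in the outer membrane and takes part in mitochondrial fission and fusion, had lowest, median and highest levels of 71.3, 123 and 192 CPM in knockout rats in the cold and 80.3, 104 and 141 CPM in knockout rats at RT. The control rats had 106.5, 123 and 155 CPM in the cold and 78.5, 111 and 129 CPM at RT. The groups overlapped, and the log2 change with cold was 0.26 ± 0.16 in knockout rats and 0.25 ± 0.16 in control rats, with adjusted p = 0.494 and 0.458.

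In knockout against control rats, 0 of 29 members passed in the cold, against 0.00992% of all genes, and 0 of 29 passed at RT, where 0% of all genes passed. Averaged over temperatures the count was 0, again with 0% of all genes, and for the difference of the cold effects it was 0 with 0% of all genes. At an unadjusted p under 0.05 edgeR gave 1 member in the cold, 2 at RT, 0 in the average and 2 in the difference of cold effects, against 6.28%, 7.06%, 6.4% and 7.31% of all genes; DESeq2 gave 0 members past the adjusted threshold in all 4 comparisons. The member in the cold was Slc25a10 (0.59 ± 0.24, adjusted p = 0.726), and those at RT were Slc25a25 and Slc25a12 (-0.37 ± 0.18, adjusted p = 0.699). Both genotype comparisons share their animals with the cold comparisons, so these values are not separate evidence. Slc25a16 had the next smallest p in the cold (0.42 ± 0.24, adjusted p = 0.856).

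The cold effects of the members lay on the same side of 0 in both genotypes for 13 higher and 5 lower carriers and on opposite sides for 11. This count was not set beside that of all genes, and some of the signs turned when single libraries were left out.

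Genes that work with the carriers were followed from fixed lists. Beside the counts of these lists, 1.38% of all genes tested passed for cold in knockout rats, 0.853% in control rats and 5.65% in the average over genotypes. Other members of the carrier fold with their own names were led by Ucp2, which rose by 1.89 ± 0.27 in knockout rats (adjusted p = 2.40e-04) and by 1.28 ± 0.26 in control rats (adjusted p = 0.0136), and was the single one of 6 tested that passed. Macrophages and neutrophils also express Ucp2, and of their 9 markers 1 passed in knockout rats and 2 in control rats. Cd163, a macrophage scavenger receptor, rose by 1.02 ± 0.21 in knockout rats (adjusted p = 0.00890) and by 0.99 ± 0.20 in control rats (adjusted p = 0.0139), and the neutrophil gene S100a8 rose in control rats (2.81 ± 0.63, adjusted p = 0.0251). The 9 markers summed to 175 to 300.1 CPM in knockout rats in the cold, 119 to 192 CPM in knockout rats at RT, 138 to 273 CPM in control rats in the cold and 27.02 to 163 CPM in control rats at RT, and their part in the rise of Ucp2 was not tested. Among the carrier-fold genes Slc25a1, the citrate carrier, stood at 1.02 ± 0.37 in knockout rats (adjusted p = 0.164) and 0.11 ± 0.37 in control rats (adjusted p = 0.911). Its median in knockout rats in the cold was 1.64 CPM and its highest value 7.66 CPM. Slc25a20, the carnitine-acylcarnitine carrier, stood at 0.15 ± 0.16 in knockout rats (adjusted p = 0.750) and 0.34 ± 0.15 in control rats (adjusted p = 0.303). Of 20 other tested transporters of the mitochondrial membranes, 1 passed in knockout rats, the sodium-calcium exchanger Slc8b1 (0.58 ± 0.14, adjusted p = 0.0341), and 0 in control rats. The machinery that inserts carriers into the inner membrane, which includes the TIM chaperones and receptors of the outer membrane, gave 0 of 10 in both genotypes and 1 of 10 in the average over genotypes, the chaperone Timm10 (0.44 ± 0.11, adjusted p = 0.0166). Of 17 reference genes for mitochondrial content, such as citrate synthase (Cs, 0.20 ± 0.16 in knockout rats and 0.30 ± 0.15 in control rats), 0 passed in either genotype and 1 in the average, the matrix isocitrate dehydrogenase Idh2 (0.53 ± 0.11, adjusted p = 0.00450). In the average the other transporters gave 3 of 20, with Sfxn1, a serine carrier (0.83 ± 0.20), and Cpt1b, the muscle carnitine palmitoyltransferase (0.46 ± 0.11), higher and Sfxn3 lower (-0.40 ± 0.11).

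Of 11 enzymes that use the substrates of these carriers, 1 passed in knockout rats, Acly, the cytosolic enzyme that splits citrate (0.97 ± 0.22, adjusted p = 0.0199), and 0 in control rats. Averaged over genotypes 2 of these enzymes passed, Mdh1, the cytosolic malate dehydrogenase of the malate-aspartate shuttle (0.43 ± 0.11, adjusted p = 0.0152), and Me1, the cytosolic malic enzyme (-0.30 ± 0.09, adjusted p = 0.0375). Within a genotype the cytosolic partners of Slc25a12 did not pass: Got1, the cytosolic aspartate aminotransferase, stood at -0.03 ± 0.12 in knockout rats and 0.25 ± 0.12 in control rats, and Mdh1 at 0.32 ± 0.16 and 0.54 ± 0.15. Of 9 regulators of mitochondrial genes, 0 passed in knockout rats and 1 in control rats, the estrogen-related receptor Esrrg (1.14 ± 0.20, adjusted p = 0.00576). Esrrg also passed in the average over genotypes (0.79 ± 0.14, edgeR adjusted p = 8.66e-04). Of the slow fibre genes, 4 of 10 rose in knockout rats and 5 of 10 in control rats, with medians of 0.75 and 0.87 on the log2 scale. Averaged over genotypes all of them passed as higher except Myl2 (0.48 ± 0.21, edgeR adjusted p = 0.191). Their summed level had medians of 19754 and 12452 CPM in knockout rats in the cold and at RT. In control rats the medians were 22197 and 12874 CPM in the cold and at RT. The part of these fibre genes in the levels of the carriers was not tested.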

How the data were processed

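Total RNA from snap-frozen gastrocnemius, made with Trizol and a Qiagen kit, went into QuantSeq 3′ libraries, per the labels' protocols. The deposited raw table holds the authors' counts of reads per gene. The deposited normalised table holds signal, the authors' counts divided by size factors, to a relative difference of 1.01e-09; it served for gene symbols. The submitters' processing notes name Rnor 6.0 as genome build and DESeq2 1.22.2. Nothing in the sources used here gives the aligner, the counter, the strand or molecular identifiers, so counts may include PCR copies. Both tables list 11289 genes, each with a total of at least 93 counts, so low genes had been removed before deposition.

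Tests on the counts used edgeR 4.0.16 with limma 3.58.1 under R 4.3.3 (TMM, filterByExpr with a minimum count of 10 and a minimum total of 15). Each group had 1 mean in a quasi-likelihood fit to all 31 libraries and 10082 genes, with 27 residual degrees of freedom. P-values are two-sided, with Benjamini-Hochberg adjustment over all 10082 genes within a comparison and a threshold of 0.05. The SE is the size of the log2 fold change over the square root of F, and intervals are 95%. Levels are CPM after TMM. Alternatives were RLE scaling, DESeq2 1.42.0 without independent filtering, no filter, no mitochondrially encoded genes, only the groups compared, single libraries left out, and control animals 1 and 2 at RT left out. The procedure was tested on simulated data. Among 105 pairs of libraries within groups, chi-square per degree of freedom was at least 5.23, so no pair looked like 1 library sequenced again. That each library is a separate animal rests on the labels, and each counted as 1 sample.

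Values are given animal by animal, as ranges, for members past the threshold in any of 7 comparisons, for the 3 smallest p-values in each and for the 5 highest levels; other members are given by group medians. The values of 1 member are not reported here, although counts over the members include it. Members and lists were chosen with earlier results of these data known. The labels name no batch; animals are numbered group after group, and any unrecorded batch in that order cannot be told apart from the groups. Gene positions and promoters are from RefSeq (GRCr8) and were matched by symbol.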

Additional observations from a re-analysis of the deposited data

Results flagged for a closer look

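Among 64 group values checked (16 named carriers in 4 groups), 5 had 1 animal far from the others of its group by Dixon's criterion, which chance meets in about 1 in 20 groups. The 3 in knockout rats in the cold were all in animal 28: Slc25a10 at 10.3 CPM with the next animal at 4.99 CPM, Slc25a35 at 7.97 CPM with the next at 5.88 CPM, and Slc25a45 at 5.42 CPM with the next at 2.82 CPM. The other 2 were in control animal 17 in the cold: Slc25a29 at 25.9 CPM with the next at 17.7 CPM, and Slc25a4 at 11812 CPM with the next at 18950 CPM. Both animals are among the 7 with the lowest scores on the first principal component. Of all 31 libraries, animal 28 had the highest summed slow fibre and erythroid markers, 30964 and 2031 CPM, and the lowest share of counts from mitochondrially encoded genes, 7.05%. Animal 17 had the lowest such share of the control rats, 8.59%, with 23658 CPM of slow fibre and 880 CPM of erythroid markers, both within the range of its group. The part of these measures in the values above was not tested. The call of Slc25a10 in knockout rats held without animal 28, at a log2 change of 0.94.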

How the results depend on the processing

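No paired analysis was possible because every animal has its own number in the labels and the groups share none. Counts of members past the threshold were 1 for cold in knockout rats, 1 for cold in control rats and 1 for the average. In knockout rats the count was 0 in a fit to the groups compared and 2 with component 1 as a covariate; with single libraries left out it was 1 throughout. In control rats it was 0 without the filter, 0 in a fit to the groups compared, 0 without the 7 libraries lowest on component 1 and 2 with component 1 as a covariate, and 0 to 1 with single libraries left out. For the average it was 6 under DESeq2, 5 without control animals 1 and 2 at RT, 2 without the 7 libraries and 7 with the covariate, and 1 to 5 with single libraries left out. Of all genes, 451 to 688 passed in the average with single libraries left out. The counts of members were not set beside the share of all genes under each setting. The covariate and the omission of 7 libraries were chosen after seeing the data. The genotype comparisons and the difference of cold effects gave 0 members under every setting run.

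Some log2 changes that did not pass turned sign. Without control animals 1 and 2 at RT, cold in control rats gave -0.096 for Slc25a11, -0.010 for Slc25a3, -0.16 for Slc25a4 and -0.13 for Slc25a34. Without the 7 libraries, Slc25a25 stood at -0.084 in knockout rats and Slc25a45 at -0.061 in control rats, and with the covariate Slc25a45 stood at -0.030 in control rats. With single libraries left out, the ranges for cold in knockout rats were -0.062 to 0.23 for Slc25a16, -0.0075 to 0.11 for Slc25a3, -0.12 to 0.052 for Slc25a4, -0.030 to 0.41 for Slc25a25, -0.020 to 0.24 for Slc25a39, -0.10 to 0.42 for Slc25a34 and -0.037 to 0.27 for Slc25a45. In control rats they were -0.015 to 0.084 for Slc25a11, -0.071 to 0.099 for Slc25a4, -0.17 to 0.33 for Slc25a34 and -0.020 to 0.23 for Slc25a45. The cause was not tested. Of 366 other values of 47 member results, 347 kept direction and call, 4 lost and 8 gained a call and 7 turned.

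Over all genes, 139 passed for cold in knockout rats, against 322 under DESeq2, 53 in a fit to the groups compared, 379 without control animals 1 and 2 and 674 with the covariate. In control rats 86 passed (60 higher, 26 lower), against 219 under DESeq2, 38 without control animals 1 and 2, 53 without the 7 libraries and 379 (160 higher, 219 lower) with the covariate. The average gave 570, against 1274 with the covariate. Knockout against control gave 1 gene in the cold, 0 at RT and 0 on average, and the difference of cold effects 0, against 6, 1, 8 and 1 under DESeq2. With single libraries left out the counts were 56 to 231 in knockout rats and 36 to 154 in control rats. Counts of 9 to 101 reads of Slc25a10 per library limit its precision.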
